A study of Mus musculus with 23 samples.

Results

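The 8 arrays described here, of 23 in the series, were those titled LSL-25,26+Cre (5 arrays, called 25,26) and LSL-QM+Cre (3 arrays, called QM), and they were chosen by title alone. All 23 arrays were hybridised with RNA of mouse embryonic fibroblasts, cells grown out of the dissociated embryo, that carried a retroviral H-Ras V12 transgene, a constantly active oncogenic Ras. The 25,26 cells carried the p53 LSL-25,26 knock-in allele, with the substitutions L25Q and W26S in the first transactivation domain, and had received Cre adenovirus. The QM cells carried the p53 LSL-QM allele, which adds W53Q and F54S in the second domain to the same 2 substitutions, and had received Cre adenovirus too. In an LSL allele a stop cassette between loxP sites precedes the coding sequence, so that the protein is made only after Cre has removed the cassette. The labels do not give the share of cells in which it was removed, nor the passage or the time after Ras. The strain background was 129/Sv for 4 25,26 and 2 QM arrays and a 129/Sv/C57BL6 mix for 25,26 replicate 3 and QM replicate 1. Because both groups carry the disrupted first domain, the comparison asks what an intact second domain does in its absence. Other arrays serve as references where named, with 3 in each group: LSL-WT with Cre virus (LSL-WT Cre, wild-type p53), LSL-53,54 with Cre virus (53,54, second domain disrupted), LSL-WT with Empty virus (LSL-WT Empty, stop cassette in place) and p53-null cells with Cre virus (Null Cre). The fit also held 3 arrays of constitutive wild-type p53 cells with Cre virus (WT Cre). Of these references, replicates 1 and 3 of LSL-WT Cre and LSL-WT Empty were of the mixed background. So were replicates 2 and 3 of 53,54 and replicate 3 of WT Cre. All others, with every Null Cre array, were 129/Sv. The group names follow the sample titles, and the series text calls the replicates biological samples without saying whether each came from its own embryo.

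The p53 protein is a transcription factor that binds DNA through a central domain and recruits the transcription machinery through an amino-terminal region made of 2 activation domains. Mdm2, the ubiquitin ligase that holds p53 levels down, binds within the first of these domains, and substitutions there loosen that binding. Activated p53 raises genes for growth arrest, cell death, DNA repair and metabolism, and it lowers many proliferation genes indirectly, largely through the Cdk inhibitor p21 (Cdkn1a) and the Rb and DREAM repressor complexes. In primary mouse fibroblasts oncogenic Ras provokes a p53-dependent permanent arrest called senescence.

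RNA levels are given as log2 of the deposited array intensity, so that a difference of 1 is a doubling, and are compared between groups only within a gene. One probe set stood for each gene, and 15266 genes were tested with limma, in a fit to all 23 arrays with the number in the title as a block. A gene was called changed at a Benjamini-Hochberg adjusted p under 0.05 over all 15266 genes. Array medians lay between 59.7 and 64 intensity units, and the number of arrays limits the precision. Title numbers 1 to 3 occur in both groups. Strain was alike within number 2 only. Number 1 sets a 129/Sv 25,26 array beside a mixed QM array, and number 3 a mixed 25,26 array beside a 129/Sv QM array. Once group means were removed, same-number 25,26 and QM arrays correlated at 0.25, 0.68 and 0.09 for numbers 1, 2 and 3, against a median of -0.13 for unequal numbers. Of the 12 unequal pairs, QM replicate 3 with 25,26 replicates 4 and 5 reached 0.50 each, above the same-number pairs 1 and 3. The replicate 5 array of 25,26 is the only array with its title number, so it adds nothing to the blocked differences. Replicates 4 and 5 of 25,26 correlated at 0.997 over genes, above the 0.995 of the next closest pair of the series, but Xist RNA, which female cells make from their silenced X chromosome, stood at log2 6.63 in replicate 4 and 12.12 in replicate 5. Within number 3, Xist stood at 12.21 in the 25,26 array and 6.70 in the QM array. The 14 measured fibroblast markers averaged log2 11.97 to 12.17 in 25,26 and 12.11 to 12.32 in QM arrays, and none was called changed.

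An intact second domain, with the first disrupted, went with higher RNA of 528 genes (3.46% of those tested) and lower RNA of 664 genes (4.35%), 1192 in all (7.81%). These calls rest on both the title-number block and the other 15 arrays, which help to set the number effects and the variances. Without the block the counts were 106 and 25, and with the block on the 8 compared arrays alone they were 97 (0.635%) and 8 (0.0524%). The counts were 195 higher and 115 lower without QM replicate 2, 291 and 282 without QM replicate 3, 341 and 376 without QM replicate 1, 303 and 220 without 25,26 replicate 2, and 319 higher without 25,26 replicate 3. Among the called genes, 85 were at least 2-fold higher in 25,26 and 8 at least 2-fold lower, while 9 were at least 4-fold higher and 0 at least 4-fold lower. Every change of at least 4-fold was therefore a rise. The sign was the same within title numbers 1, 2 and 3 for 525 of the 528 higher and 661 of the 664 lower genes. The calls were made from these same differences, and of all genes tested 18.6% were positive and 22.9% negative in all 3 numbers. The 25,26 and QM arrays did not overlap for 295 of the 528 and 278 of the 664, while 4.19% of all genes lay wholly higher and 4.18% wholly lower.

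The 12 genes with the largest rises among those whose arrays did not overlap included known p53 targets and several genes of other kinds. The uncharacterised gene 1700007K13Rik had log2 levels of 8.72, 8.41, 8.72, 7.61 and 7.71 in 25,26 arrays, against 4.66, 4.67 and 4.81 in QM arrays. Its difference was 3.76 ± 0.34 (SE), or 13.5-fold, with an adjusted p of 1.46e-05 in limma. All 5 of its 25,26 levels stood far above the 3 QM levels, which lay at 4.71 ± 0.09 (SD, n = 3). That QM mean was close to the 4.48 of LSL-WT Empty and 4.43 of Null Cre. All 3 means lay under log2 4.79, the level cut used to choose genes for testing. How far background sets the size of this difference was not tested. Ccng1, or cyclin G1, a p53 target whose protein helps to control Mdm2 through a phosphatase, had levels of 12.97, 13.12, 13.19, 13.07 and 13.11 in 25,26 and 11.05, 11.15 and 11.36 in QM arrays. This was the tightest of the large rises, at 1.88 ± 0.09 (SE) with an adjusted p of 3.01e-08. Notch3, a Notch-family receptor, had levels of 8.57, 10.27, 9.15, 8.38 and 8.38 in 25,26 and 5.97, 7.80 and 6.88 in QM arrays. The spread within each group was large but shared by number, with rises of 2.60, 2.47 and 2.27 within numbers 1, 2 and 3, and the blocked difference was 2.47 ± 0.23 (SE, adjusted p = 1.46e-05). Without the block the adjusted p for Notch3 was 0.144. Zfp365, the mouse form of a zinc finger protein linked to genome stability, had levels of 8.56, 8.66, 9.04, 8.25 and 8.14 in 25,26, against 6.23, 7.03 and 7.05 in QM arrays. The rise was 1.95 ± 0.22 (SE, adjusted p = 0.000107), and its groups lay well apart.

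These 4 genes are the ones, of the 10 largest rises with a RefSeq promoter window, whose window holds a match to the p53 response element. They are shown because the comparison is between 2 forms of a DNA-bound activator that differ outside the DNA-binding domain. Each window runs from 250 bases before to 50 bases after the RefSeq start (build GRCm38.p6, 5′ to 3′ on the gene's own strand, which is the minus strand for all 4), with the match in capitals. The match was scored against the p53 response element consensus, a pair of decamers, allowing up to 2 mismatches of 20 and a spacer of up to 1 base. No mismatch was allowed at the fixed C and G of each decamer. The decamer consensus reads the same on both strands, so 1 scan covers both. The windows lie at chr2:28466275-28466574 for 1700007K13Rik (1 mismatch), chr17:32166841-32167140 for Notch3 (2 mismatches), chr10:67912613-67912912 for Zfp365 (2 mismatches) and chr11:40755237-40755536 for Ccng1 (1 mismatch).
1700007K13Rik: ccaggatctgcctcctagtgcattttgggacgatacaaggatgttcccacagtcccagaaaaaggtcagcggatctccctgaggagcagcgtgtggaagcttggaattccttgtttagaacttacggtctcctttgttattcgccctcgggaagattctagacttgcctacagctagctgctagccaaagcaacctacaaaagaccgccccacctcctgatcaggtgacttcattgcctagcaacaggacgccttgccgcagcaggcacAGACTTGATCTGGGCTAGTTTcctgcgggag
Notch3: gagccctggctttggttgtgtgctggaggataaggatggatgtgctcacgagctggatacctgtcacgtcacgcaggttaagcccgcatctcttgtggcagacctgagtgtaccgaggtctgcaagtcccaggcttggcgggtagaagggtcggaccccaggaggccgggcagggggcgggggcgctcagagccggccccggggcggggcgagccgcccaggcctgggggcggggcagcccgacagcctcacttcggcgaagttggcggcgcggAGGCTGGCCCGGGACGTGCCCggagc
Zfp365: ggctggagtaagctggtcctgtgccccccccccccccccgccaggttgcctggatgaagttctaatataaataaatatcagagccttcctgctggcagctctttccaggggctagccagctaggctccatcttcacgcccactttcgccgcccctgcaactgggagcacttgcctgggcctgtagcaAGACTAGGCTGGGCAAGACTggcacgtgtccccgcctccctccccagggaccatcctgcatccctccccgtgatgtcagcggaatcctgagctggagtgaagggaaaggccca
Ccng1: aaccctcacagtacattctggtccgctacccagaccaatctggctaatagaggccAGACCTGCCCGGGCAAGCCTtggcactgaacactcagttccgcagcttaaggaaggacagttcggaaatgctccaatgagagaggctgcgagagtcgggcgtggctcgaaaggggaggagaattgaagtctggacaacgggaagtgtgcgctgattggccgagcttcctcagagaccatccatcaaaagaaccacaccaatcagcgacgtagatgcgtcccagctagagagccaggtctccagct
Counted from the start in bases, the match began at -195 in Ccng1, -63 in Zfp365, 19 in 1700007K13Rik and 24 in Notch3. Of the genes with a window, 13 of 454 higher genes (2.86%) and 2 of 547 lower genes (0.366%) held such a match, beside 113 of all 12202 tested genes (0.926%). With up to 3 mismatches the shares were 8.81% of higher, 2.19% of lower and 3.71% of all genes. A match describes letters in this window, and binding was not measured here.

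The other large rises covered several functions. Sulf2, an extracellular enzyme that removes sulfate groups from heparan sulfate, averaged 12.52 ± 0.30 in 25,26 and 9.54 ± 0.49 in QM arrays (SD, n = 5 and 3), with 12.23 in the lowest 25,26 array and 10.02 in the highest QM array. Its difference of 2.92 ± 0.15 (SE, adjusted p = 4.64e-08) was 7.57-fold. Trp53inp1, a stress-induced nuclear protein and p53 target that acts in cell death and autophagy, had levels of 10.22, 10.90, 10.76, 10.48 and 10.46 in 25,26 and 7.90, 8.05 and 8.57 in QM arrays. The rise of Trp53inp1 was 2.48 ± 0.18 (SE, adjusted p = 2.11e-06). Tbc1d8, a member of a family of Rab GTPase-activating proteins, averaged 7.85 ± 0.46 (SD, n = 5) in 25,26 and 5.39 ± 0.26 (SD, n = 3) in QM arrays, a difference of 2.70. Tex15, known for its role in the male germ line, averaged 7.46 ± 0.35 and 5.37 ± 0.13 in 25,26 and QM arrays (SD, n = 5 and 3), a difference of 2.26. Celf5, an RNA-binding protein, averaged 6.70 ± 0.52 and 5.02 ± 0.17, a difference of 1.87. Dcxr, a carbonyl and sugar reductase, rose by 2.35, and the LIM-domain protein gene Crip2 rose by 1.95. Sytl1, a synaptotagmin-like partner of Rab27 in vesicle traffic, rose by 2.36 ± 0.47 (SE, adjusted p = 0.0078), but its adjusted p was 0.0657 without the block and the call was lost without QM replicate 2. Of these 12 genes, 8 were called under each of the 26 alternative settings run.

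**Figure D1:**
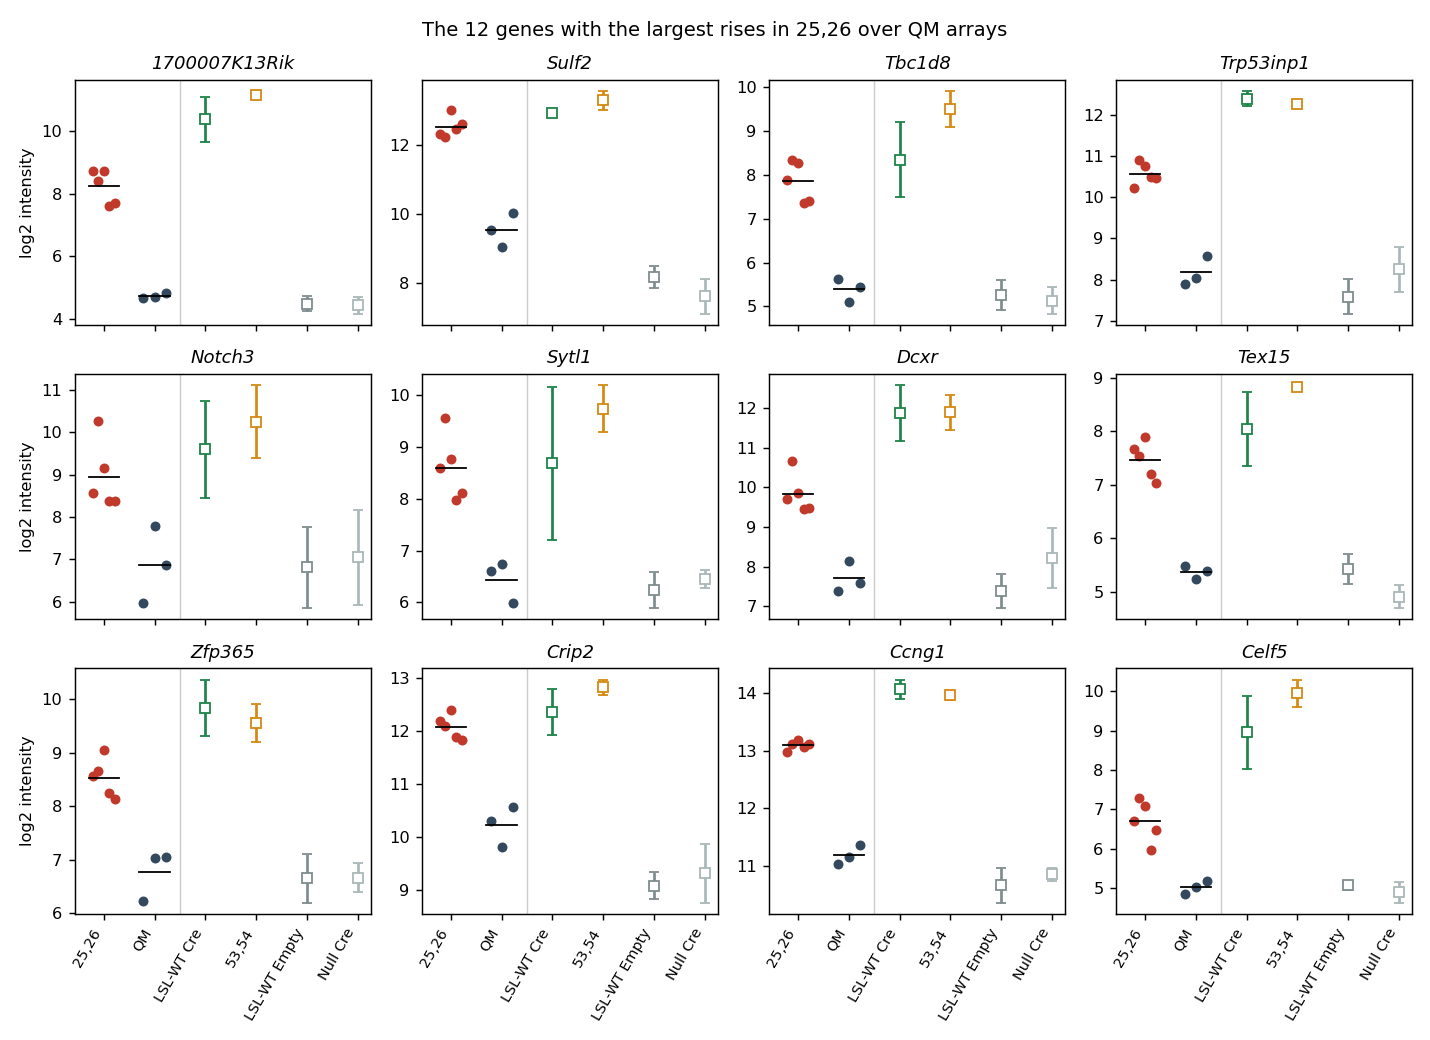
Log2 intensity (vertical axis) of the 12 genes with the largest rises among called genes whose 25,26 and QM arrays did not overlap. There is 1 point per array and a bar at the mean for 25,26 (red) and QM (dark blue). Open squares give the mean with SD of 3 arrays for each of 4 further groups. That every 25,26 point lies above every QM point follows from this choice. The QM points of 1700007K13Rik (4.66 to 4.81) lie beside the LSL-WT Empty and Null Cre means.

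Among 24 measured genes of growth arrest and p53 feedback, 9 were called higher and 0 lower in 25,26, where 3.46% of all genes were called higher. The median difference was 0.49 beside -0.01 over all genes. Mdm2, the main inhibitor of p53 and itself a target, had levels of 11.45, 11.88, 11.60, 11.39 and 11.36 in 25,26, against 10.28, 10.38 and 10.17 in QM arrays. Every Mdm2 level in 25,26 stood above every level in QM arrays, and the difference was 1.34 ± 0.10 (SE, adjusted p = 2.5e-06). Cdkn1a, which encodes the Cdk inhibitor p21, had levels of 11.61, 12.33, 12.01, 11.64 and 11.58 in 25,26 and 10.64, 11.18 and 10.64 in QM arrays. The rise of Cdkn1a was 1.15 ± 0.09 (SE, adjusted p = 5.05e-06), with 0.98, 1.15 and 1.37 within numbers 1, 2 and 3, while without the block the adjusted p was 0.0553. Zmat3, an RNA-binding zinc finger protein, rose by 1.27 ± 0.09 (SE), and Psrc1, a microtubule-binding protein, rose by 1.73 ± 0.25 (SE). Gtse1, a microtubule protein made in G2 phase that restrains p53, rose by 0.86 to 9.99 ± 0.11 in 25,26, against 9.13 ± 0.10 in QM arrays (SD, n = 5 and 3). The remaining 15 genes were not called. Among them the antiproliferative gene Btg2 differed by 0.93 (adjusted p = 0.0808), although its arrays did not overlap. The stress gene Gadd45a differed by 0.02, with levels of 9.34 to 10.04 in 25,26 and 9.54 to 9.90 in QM arrays.

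Of 21 measured apoptosis genes in the list of p53 targets, 12 were called higher and 0 lower, where 3.46% of all genes were called higher. The median difference was 0.71. Perp, a desmosome-linked membrane protein required for some forms of p53-dependent death, had levels of 8.58, 9.22, 9.86, 8.24 and 8.18 in 25,26 and 8.25, 6.68 and 6.37 in QM arrays. QM replicate 1, from the mixed background, overlapped the 25,26 arrays, and the rise in Perp was 0.34 within number 1 but 2.54 and 3.49 within numbers 2 and 3, giving 2.03 ± 0.38 (SE, adjusted p = 0.00582). The death receptor genes Eda2r and Fas rose by 1.68 ± 0.26 and 1.21 ± 0.28 (SE). Fas levels were low in both groups, at 6.36 ± 0.19 in 25,26 and 5.11 ± 0.16 in QM arrays (SD, n = 5 and 3), and its call was lost without QM replicate 2 or 3. Phlda3, which blocks Akt at the membrane, rose by 1.62 ± 0.11 (SE, adjusted p = 1.59e-06). Apaf1, the scaffold of the caspase-activating apoptosome, had levels of 10.49, 10.64, 10.93, 10.75 and 10.81 in 25,26, against 9.82, 9.60 and 10.07 in QM arrays. Its mean of 10.72 in 25,26 arrays was above the 10.36 of LSL-WT Cre arrays, and it rose by 0.85 ± 0.09 (SE, adjusted p = 9e-05). BH3-only proteins trigger mitochondrial death. Of their genes Pmaip1 (Noxa) was called at 0.97 ± 0.24 (SE, adjusted p = 0.0246), with overlapping groups of 8.59 to 10.58 in 25,26 and 8.64 to 9.44 in QM arrays, and was not called without the block (adjusted p = 0.834). Bbc3 (Puma) had levels of 7.88 to 8.56 in 25,26 and 8.01 to 8.40 in QM arrays, a difference of 0.15 ± 0.12 (SE, adjusted p = 0.543). In LSL-WT Cre against LSL-WT Empty arrays Bbc3 rose by 0.97. Without the block 7 of these 21 genes and 7 of the 24 arrest genes were called higher, and in the compared arrays alone, with the block, 4 and 8. Over all 15266 genes these 2 settings called 106 and 97 (0.635%) higher.

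Without the block, 3 of 17 measured repair and redox genes were called higher and 0 lower. With it 5 were called higher and 1 lower, where 3.46% and 4.35% of all genes were, at a median difference of 0.18. The rises were in Mgmt, which removes alkyl groups from guanine (1.28 ± 0.15, SE), Polk, a translesion DNA polymerase (1.11 ± 0.14), Ercc5, the nucleotide-excision endonuclease (1.05 ± 0.15), Ephx1, an epoxide hydrolase (1.05 ± 0.18), and Aldh4a1, a mitochondrial enzyme of proline breakdown (0.80). The fall was in Pcna, the sliding clamp of replication, at -0.44 ± 0.12. Ephx1 was not called without the block (adjusted p = 0.117). Ddb2, a damage-recognition protein, differed by -0.17 (adjusted p = 0.74), with 5.60 to 6.24 in 25,26 and 6.13 to 6.53 in QM arrays.

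A list of genes published as still activated by the 25,26 mutant had 17 measured members, of which 16 were called higher and 0 lower, at a median of 1.24. Over all genes 3.46% were called higher. These genes were partly chosen on these samples, so the count is no independent evidence. Mgmt, Polk and Ercc5 of the repair list, Phlda3 of the apoptosis list and Trp53inp1 of the arrest list are members too. The counts of those lists are therefore not independent of this one. Ei24 counts in both the arrest and the apoptosis list. The call held for 14 without the block and for 8 on 129/Sv arrays alone. Over all genes these 2 settings called 106 and 35 higher. Abhd4, a lysophospholipase, had levels of 12.27, 12.61, 12.64, 12.37 and 12.39 in 25,26, against 11.45, 11.28 and 11.27 in QM arrays, which differed by 1.16 ± 0.13 (SE). Sidt2, a lysosomal nucleic acid transporter, had levels of 10.64, 10.70, 10.66, 10.31 and 10.41 in 25,26 and 9.43, 9.18 and 9.54 in QM arrays, a difference of 1.24 ± 0.14 (SE). In both genes the 2 groups lay well apart, with little spread. Def6, a guanine nucleotide exchange factor, rose by 1.35 ± 0.16 (SE), and Arap2, a GTPase-activating protein for Arf, rose by 1.25 ± 0.14. The member that was not called, Cgrrf1, a ring finger protein of the endoplasmic reticulum, differed by 0.19 ± 0.12 (adjusted p = 0.407).

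**Figure D2:**
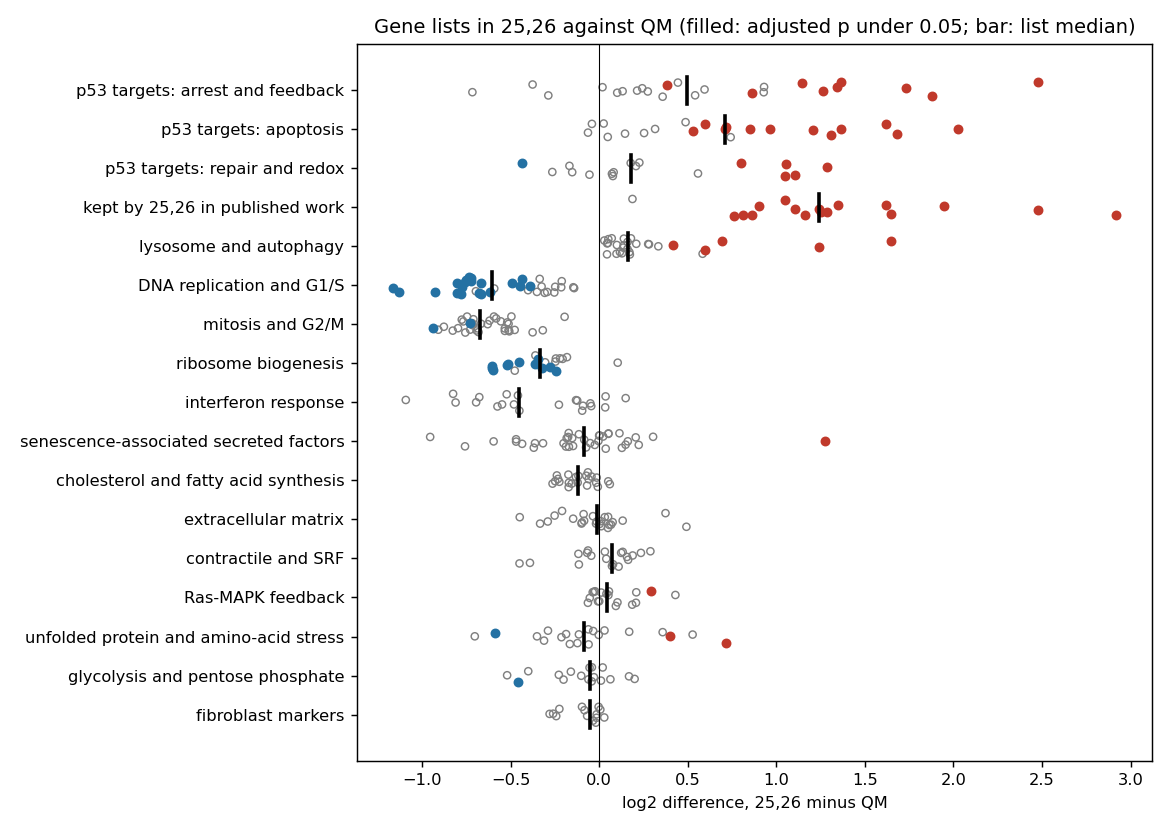
Log2 difference, 25,26 minus QM (horizontal axis), of each measured gene in 17 lists (rows), with genes called higher in red, genes called lower in blue, uncalled genes as open circles and the list median as a black bar. The p53 target lists extend to the right, with 9, 12 and 5 genes called higher, while all 34 mitosis and all 34 replication genes lie left of 0 with 2 and 20 called.

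Of 34 measured genes of DNA replication and the G1/S transition, 20 were called lower and 0 higher, where 4.35% of all genes were called lower. The median difference was -0.61, and all 34 estimates were negative. Several of the 12 largest falls, again among genes whose arrays did not overlap, were in genes that act at the replication fork or in mitosis. Exo1, a DNA exonuclease, had levels of 8.24, 6.73, 8.16, 8.43 and 8.36 in 25,26, against 8.88 ± 0.15 (SD, n = 3) in QM arrays. Cdc6, which loads the replicative helicase, had levels of 8.94, 7.54, 8.91, 9.25 and 9.19 in 25,26 and 9.66, 9.28 and 9.79 in QM arrays. In both genes 25,26 replicate 2 stood far below the other 25,26 arrays, and the differences were -1.16 ± 0.29 and -1.13 ± 0.27 (SE). Dscc1, a subunit of a clamp loader for sister chromatid cohesion, fell by 1.19, and Lrr1, a substrate receptor in replisome disassembly, fell by 1.07. The mitotic kinase genes Pbk and Haspin fell by 1.08 and 0.98, the cell-cycle transcription factor gene Mybl2 by 0.97, the spindle gene Haus5 by 0.96 and Fbxo5, an inhibitor of the anaphase-promoting complex, by 0.94. Mybl2 had levels of 7.49, 6.67, 6.94, 7.12 and 6.95 in 25,26, against 8.11, 8.10 and 7.75 in QM arrays, and remained called without the block (adjusted p = 0.0242). Of the 12 largest falls, 10 were not called without the block (adjusted p up to 0.585), 11 not without QM replicate 2 and 8 not without 25,26 replicate 2. None of the 12 was called under every alternative.

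Among the 12 largest falls were also Meox2, Bdh1 and Igsf5, which are not known as cell-cycle genes. Meox2, a homeobox gene, had levels of 4.67, 4.61, 4.76, 4.67 and 4.28 in 25,26, against 7.03, 5.18 and 5.16 in QM arrays. Every 25,26 level of Meox2 lay under log2 4.79, the level cut used to choose genes for testing. QM replicate 1, of the mixed background, alone stood high, and the difference was -1.08 with it and -0.52 without it. The call (adjusted p = 0.0426) was lost without QM replicate 1 or 2, without any of 25,26 replicates 1 to 4 and without the block (adjusted p = 0.0908). Bdh1, the mitochondrial enzyme that interconverts ketone bodies, had levels of 6.37, 5.50, 6.66, 6.51 and 6.44 in 25,26 and 7.61, 6.93 and 7.27 in QM arrays, a difference of -1.04 ± 0.21 (SE). The Bdh1 mean of 6.65 in LSL-WT Cre arrays was above the 25,26 mean of 6.30. Igsf5, an immunoglobulin-family adhesion protein of cell junctions, had levels of 5.97, 6.43, 5.81, 5.71 and 6.50 in 25,26 and 6.93, 7.30 and 6.94 in QM arrays. Igsf5 fell by 1.03 and was called without the block too (adjusted p = 0.0402).

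Of 34 measured mitosis and G2/M genes, 2 were called lower and 0 higher, where 4.35% of all genes were called lower. The median difference was -0.67 all the same, and all 34 estimates were negative. The called genes were Fbxo5 and Foxm1, the transcription factor of G2/M genes, at -0.73 ± 0.19 (SE, adjusted p = 0.0311). The spindle checkpoint genes Mad2l1 and Ttk differed by -0.67 and -0.88 (adjusted p = 0.0556 and 0.0651). Over the 68 genes of both lists the mean log2 level per array was 10.30, 9.43, 10.04, 10.30 and 10.26 in 25,26, against 10.57, 10.38 and 10.59 in QM arrays. All 5 values in 25,26 were below all 3 in QM arrays, with replicate 2 of 25,26 far below the rest. The mean was 10.07 ± 0.37 (SD, n = 5) in 25,26 and 10.51 ± 0.12 (SD, n = 3) in QM arrays, and the difference of -0.45 had a two-sided exact permutation p of 0.0893 over 56 splits, where the smallest possible is 0.0179. That test takes no account of the title number. Within numbers 1, 2 and 3 the differences were -0.28, -0.94 and -0.55, with a mean of -0.59, and an exact test over the signs of 3 differences cannot give a p below 0.25. Without 25,26 replicate 2 the difference was -0.29 with an exact permutation p of 0.0286. Without the block, 1 replication and 0 mitosis genes were called lower, and without all arrays of title number 2 the counts were the same. Over all genes these 2 settings called 25 and 62 lower. Without QM replicate 2 alone, 3 replication genes were called, where 115 of all genes were called lower. In the 8 compared arrays alone, with the block, 0 replication and 0 mitosis genes were called, at medians of -0.59 and -0.66.

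**Figure D3:**
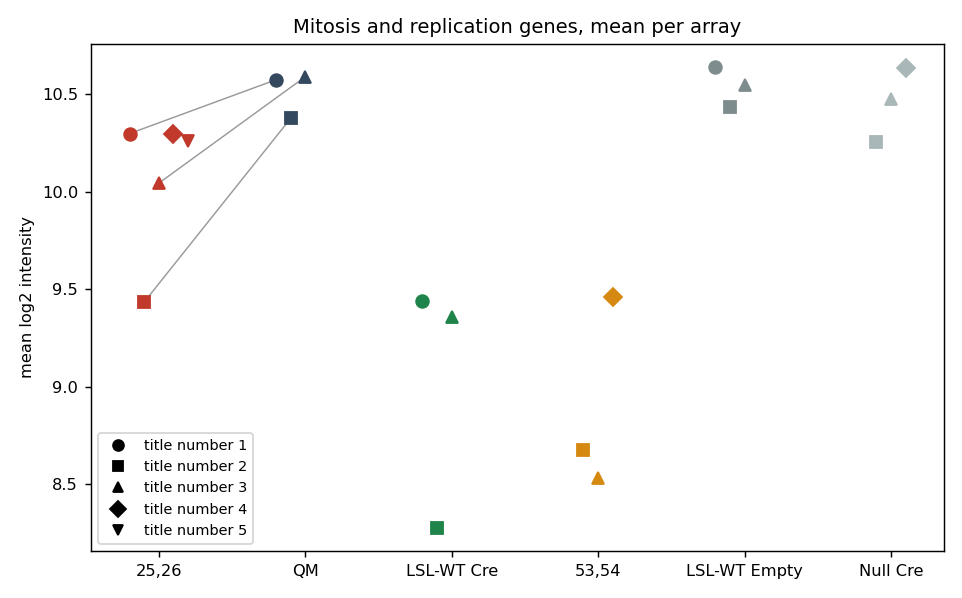
Mean log2 intensity (vertical axis) of the 68 mitosis and replication genes in each array of 6 groups, with the marker shape giving the title number and lines joining 25,26 and QM arrays of equal number. The 25,26 arrays lie between 9.43 and 10.30, below the QM arrays at 10.38 to 10.59, and the arrays with number 2 are the lowest or nearly the lowest of their groups.

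Of 20 measured ribosome biogenesis genes, 11 were called lower and 0 higher, where 4.35% of all genes were called lower, and the median difference was -0.33. The remaining 9 were not called, 1 was called without the block, and 0 were called in the compared arrays alone, with the block. Over all genes these 2 settings called 25 and 8 lower. Dkc1, the pseudouridine synthase of small nucleolar particles, had levels of 11.62, 11.21, 11.34, 11.51 and 11.40 in 25,26, against 12.13, 11.90 and 11.92 in QM arrays. It fell by 0.61, its arrays did not overlap, and it was called without the block (adjusted p = 0.0364). Nop58, a core protein of the same class of particles, fell by 0.52, Polr1b, a subunit of RNA polymerase I, by 0.45 and Fbl, the fibrillarin methyltransferase gene, by 0.36. Without the block 2 of 28 lysosome and autophagy genes were called higher. With it 5 were called higher and 0 lower, where 3.46% of all genes were called higher, at a median of 0.16. They were the cathepsin genes Ctsf (1.65 ± 0.22, SE) and Ctsd (0.69 ± 0.11), the lysosomal gene Sidt2, and the autophagy genes Ulk1 (0.60 ± 0.15) and Wipi1 (0.42). Both Ctsf and Sidt2 also belong to the published list of genes activated by 25,26. With each array left out in turn, 3 to 20 replication, 2 to 11 ribosome biogenesis, 3 to 6 lysosome and 6 to 12 apoptosis genes were called, and without QM replicate 2 these were 3, 2, 3 and 6. Calls over all genes fell too, to 195 higher and 115 lower without QM replicate 2, from 528 and 664 in the main fit.

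Few genes of the other lists were called, beside 3.46% of all genes called higher and 4.35% called lower. In 21 interferon-response genes 0 were called in either direction, with a median of -0.45 and wide spread within groups. That median was 0.0095 without QM replicate 1 and -0.28 without 25,26 replicate 1. Cxcl10, an interferon-induced chemokine, had levels of 8.78, 7.66, 9.73, 8.36 and 8.19 in 25,26 and 9.90, 9.71 and 9.80 in QM arrays, a difference of -1.09 ± 0.44 (SE, adjusted p = 0.162). Of 37 senescence-associated secreted factors 1 was called, Icam1, an adhesion receptor for leukocytes. Its levels were 6.98, 6.34, 6.90, 5.51 and 5.50 in 25,26 and 5.81, 4.85 and 5.49 in QM arrays, overlapping between groups, and its difference of 1.28 ± 0.27 (SE) was not called without the block (adjusted p = 0.38). In the unfolded protein and amino-acid stress list, 2 of 20 were called higher and 1 lower, Stc2, at -0.59. Hk2, a hexokinase, was the only one of 17 glycolysis and pentose phosphate genes called, at -0.46. Of 18 Ras-MAPK feedback genes 1 was called, Spred2, at 0.29. None of 22 cholesterol and fatty acid synthesis, 25 extracellular matrix and 19 contractile genes was called.

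Among markers of other cell types, 1 of 8 measured macrophage genes was called, Cd14, at 0.60 ± 0.16 (SE, adjusted p = 0.0378). The macrophage list averaged log2 5.91 to 6.08 in 25,26 and 5.67 to 5.79 in QM arrays. No gene was called among 7 endothelial, 13 epithelial, 11 muscle, 12 neural, 4 adipocyte, 9 cartilage and bone and 3 erythroid markers. The calls of Pmaip1, Pcna, Foxm1, Nop58, Fbl, Ulk1, Icam1, Stc2 and Cd14 were also lost without QM replicate 2. Those of Pcna, Foxm1, Stc2, Fbxo5 and Pbk were lost on leaving out any 1 of at least 6 of the 8 arrays. The lists of other cell types stayed between log2 5.50 and 8.49 in both groups, and their part in the results was not tested. In bulk RNA fewer cells of a type and less RNA per cell cannot be told apart.

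The same genes were then read in LSL-WT Cre against LSL-WT Empty, which asks what restored wild-type p53 does. These groups also differ in the virus, Cre against Empty, whereas 25,26 and QM cells both received Cre virus. Its groups hold no 25,26 or QM array, but all 23 arrays share the title-number effects and variances of 1 fit, so the counts are not from separate data. Of the 528 genes higher in 25,26 than QM, 456 (86.4%) were also higher in LSL-WT Cre, where 11.3% of all genes were, and 1 was lower. These 456 were 26.5% of the 1722 genes higher in LSL-WT Cre. Of the 664 lower genes, 624 (94%) were also lower in LSL-WT Cre, where 15.4% of all genes were, and 0 were higher. In either direction 26.7% of all genes were called there. The median difference of the 528 genes was 0.54 in 25,26 against QM and 0.69 in LSL-WT Cre against LSL-WT Empty, and that of the 664 was -0.41 and -0.63. Without the block 102 genes were higher in both comparisons. When each comparison was fitted to its own arrays only, with the block, 89 of the 97 genes higher in 25,26 (91.8%) were also higher in LSL-WT Cre, where 13.2% of all genes were, and 7 of the 8 lower genes were also lower, where 17.4% were. That setting was chosen after the data were seen. Psrc1, for example, rose by 5.46 in LSL-WT Cre against LSL-WT Empty and by 1.73 in 25,26 against QM. Sidt2 rose by 1.35 and 1.24 in these comparisons. Their baselines are unlike, LSL-WT Empty in the first and QM in the second, so these sizes are given side by side only. Of the 528 genes, 160 (30.3%) averaged at least as high in 25,26 as in LSL-WT Cre arrays, among them Apaf1, Sidt2 and Ctsf. These are plain group means without the block, and the 2 groups hold unlike title numbers. The 528 were chosen for high levels in 25,26, and the share over all genes was not counted. The 30.3% is therefore a description only.

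**Figure D4:**
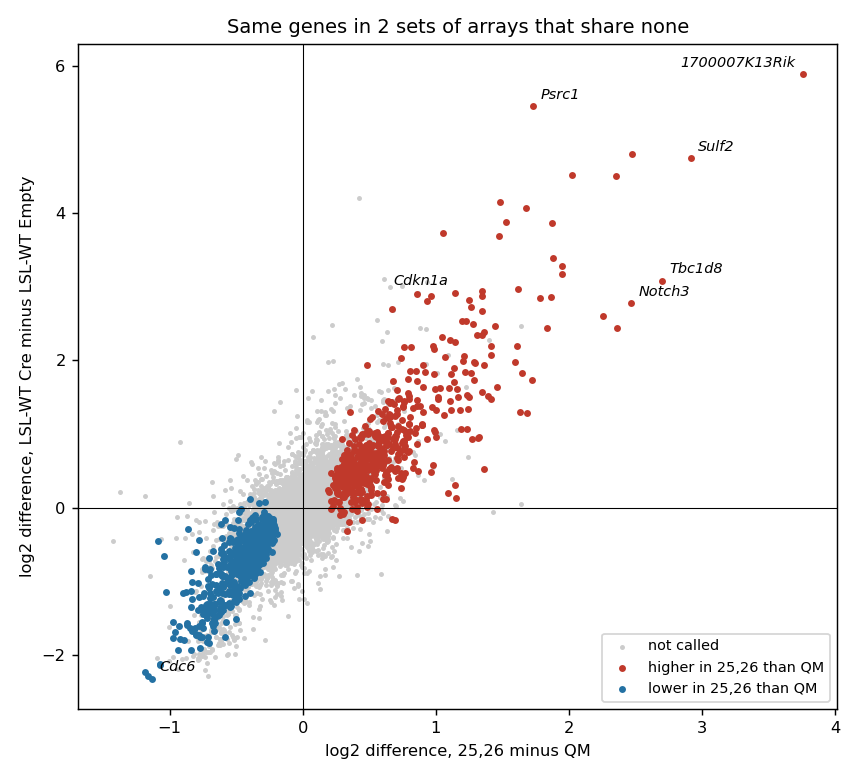
Log2 difference of each of 15266 genes in 25,26 minus QM (horizontal axis) and in LSL-WT Cre minus LSL-WT Empty (vertical axis), with genes called higher in 25,26 in red, called lower in blue and others in grey. The red points lie almost all above 0 and the blue points almost all below 0 on the vertical axis, as with 1700007K13Rik at 3.76 and 5.89 and Cdc6 at -1.13 and -2.33.

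The reverse mutant, with the first domain intact and the second disrupted, was read in the same way, as 53,54 against Null Cre in the same fit. There 15% of all genes were called higher and 16.3% lower, 31.3% in all. Of the 528 genes higher in 25,26 than QM, 489 (92.6%) were also higher in 53,54 than Null Cre and 2 lower, while of the 664 lower genes 577 (86.9%) were also lower and 0 higher. These shared genes were 21.3% of the 2294 higher and 23.2% of the 2483 lower in 53,54. The median difference of the 528 was 0.90 in 53,54 against Null Cre. With each comparison fitted to its own arrays only, 95 of the 97 higher genes (97.9%) were also higher in 53,54, where 12.7% of all genes were, and 7 of the 8 lower genes were also lower, where 12.9% were. Cdkn1a rose by 2.14 and Mdm2 by 2.61 in 53,54 against Null Cre, beside 1.15 and 1.34 in 25,26 against QM. For Abhd4 the values were 1.86 and 1.16, and for Apaf1 1.33 and 0.85. Here too the baselines are unlike, Null Cre in the first and QM in the second. Apaf1 in QM was itself 0.53 above the p53-deficient arrays, LSL-WT Empty and Null Cre. These sizes are therefore given side by side only, and 53,54 against Null Cre also differs in strain background.

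With the first domain intact, few genes were called for the second. In LSL-WT Cre against 53,54 only 4 genes were called higher (0.0262%) and 49 lower (0.321%). That comparison has 3 against 3 arrays that share title numbers 2 and 3 only, beside 5 against 3 arrays for 25,26 against QM. The counts of LSL-WT Cre against 53,54 were not repeated without the block. None of the 528 genes was called higher there and 23 were called lower, with a median of -0.24, while the median of the 664 was 0.11. Mdm2 averaged 13.31 in LSL-WT Cre and 12.96 in 53,54 arrays, a difference of 0.32 (adjusted p = 0.37), and Cdkn1a averaged 13.65 and 13.52, a difference of 0.14 (adjusted p = 0.82). The test of the difference itself, 25,26 minus QM less LSL-WT Cre minus 53,54, called 517 genes higher (3.39%) and 362 lower (2.37%), 879 in all (5.76%), and 190 without the block. Of the 528 higher genes 372 and of the 664 lower genes 301 were among them, and these sets share the 25,26 and QM arrays. Ccng1 differed by 1.88 with the first domain disrupted and by 0.18 with it intact, an excess of 1.70 (adjusted p = 3e-05). For Sulf2 the differences were 2.92 and -0.29, for Mdm2 the excess was 1.03 (adjusted p = 0.0015) and for Cdkn1a 1.01 (adjusted p = 0.00097). Ephx1 did not pass this test, with an excess of 0.64 (adjusted p = 0.22). Fas differed by 1.21 in 25,26 against QM and by -1.24 in LSL-WT Cre against 53,54, which was not called (adjusted p = 0.12), and the excess was 2.44 (adjusted p = 0.0043). On 129/Sv arrays alone, without the block, 0 genes passed this test, with 1 LSL-WT Cre and 1 53,54 array left.

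**Figure D5:**
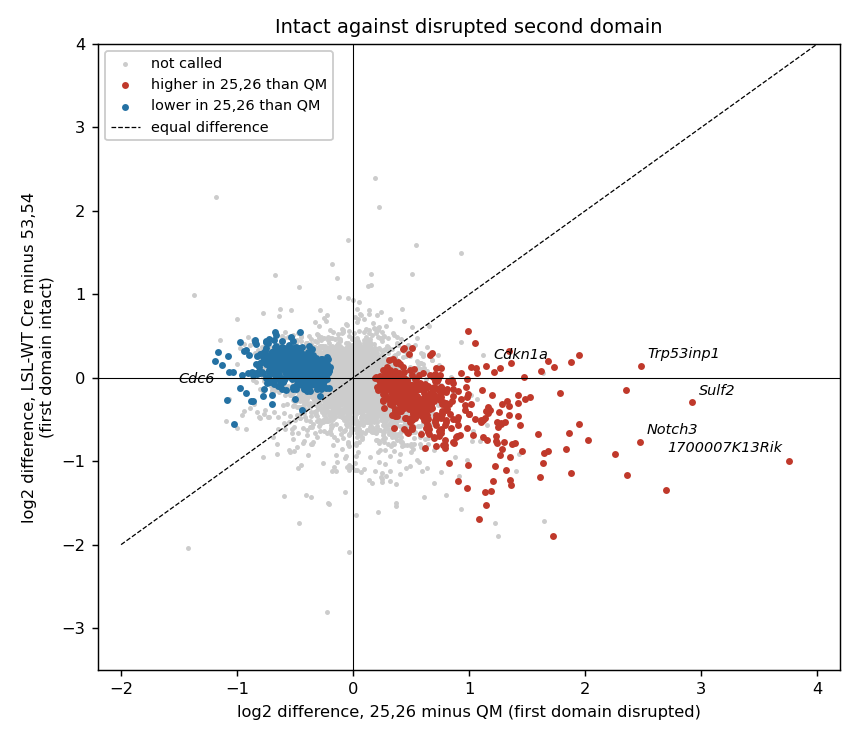
Log2 difference of each gene for an intact over a disrupted second domain, with the first domain disrupted (25,26 minus QM, horizontal axis) and intact (LSL-WT Cre minus 53,54, vertical axis), coloured by the call in 25,26 against QM and with a dashed line of equal differences. The called genes spread along the horizontal axis, as Sulf2 at 2.92 and -0.29 and Trp53inp1 at 2.48 and 0.15, while the median of the genes called higher is -0.24 on the vertical axis.

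QM arrays were set against the 6 p53-deficient arrays, LSL-WT Empty and Null Cre, as a baseline for the second domain. QM differed in 7 genes called higher (0.0459%) and 3 called lower (0.0197%), and 10 in all is 0.0655% of the genes. In 25,26 against the same 6 arrays 1462 genes were called higher (9.58%) and 1441 lower (9.44%). None of these counts was repeated without the block. The 7 higher in QM were Sulf2 (1.67 ± 0.14, SE), Def6 (1.39 ± 0.15), Dennd2c (0.75), Galnt3 (0.70), Zmat3 (0.68 ± 0.08), Apaf1 (0.53 ± 0.08) and Rnf169 (0.51). The 3 lower were Ei24 (-0.78 ± 0.10), Sac3d1 (-0.57) and Saysd1 (-0.49). Of these 7, all but Galnt3 (-0.25, adjusted p = 0.311) were also called higher in 25,26 than QM. Sulf2 levels were 12.52 ± 0.30 in 25,26 and 9.54 ± 0.49 in QM (SD, n = 5 and 3), against 8.18 in LSL-WT Empty and 7.61 in Null Cre arrays. Def6 levels were 9.12 ± 0.26 and 7.91 ± 0.14, against 6.57 and 6.38. Ei24, an endoplasmic reticulum protein of autophagy and a p53 target, went the other way in QM. It had levels of 10.03, 9.96, 10.43, 10.41 and 10.37 in 25,26 and 8.91, 8.62 and 8.81 in QM arrays, against means of 9.77 in LSL-WT Empty and 9.43 in Null Cre arrays. The 25,26 and QM arrays differed by 1.36 ± 0.11 (SE), with each QM level below both p53-deficient means.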

How the data were processed

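The deposited values, made by the authors with RMA, are array intensity on a linear scale for each probe set, between 8.5 and 32042.1 in these 23 arrays. RMA is named in the submitters' processing notes, and its options are not given in the sources used here. These deposited values were taken to log2. Of 45101 probe sets, 64 controls were left out, 34945 had 1 gene symbol, and 932 with several and 9160 not listed were not used. Where several probe sets named a gene, the brightest on average stood for it (18193 genes), and 15266 genes with at least 3 arrays above the 30th percentile (log2 4.79) were tested.

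The fit in limma 3.58.1 (R 4.3.3) held the 7 titled groups and the title number as a fixed block, with 12 residual degrees of freedom, a two-sided moderated test and Benjamini-Hochberg adjustment over all genes tested. The code was tested on simulated data. The labels do not say that title numbers mark a shared litter or day. Over all groups the median residual correlation was 0.397 for 55 same-number pairs and -0.142 for 170 others. Of the 3 pairs of 25,26 with QM, the third was at 0.0929, below the 0.1 asked of every pair, so counts without the block stand beside the blocked ones.

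Named genes were the 12 largest rises and 12 largest falls whose groups did not overlap, up to 4 genes per list by absolute moderated statistic, and every measured member of the p53 target lists and of the published 25,26 list. Wipi1 and the genes Dennd2c, Galnt3, Sac3d1 and Saysd1, called in QM against p53-deficient arrays, were named after their values were seen. The members and lists (467 of 503 list genes matched) were chosen with earlier results of these data known. Promoter windows are from RefSeq (GRCm38.p6). RNA of the targeted gene and of the transgene was not analysed here.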

Additional observations from a re-analysis of the deposited data

Results flagged for a closer look

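In 9 of 78 values examined, 1 array of 25,26 stood apart from the other 4 by Dixon's test, which flags about 1 in 20 groups by chance. Replicate 2 was that array in 6 genes, all lower in 25,26 than QM. Its log2 levels were 7.54 for Cdc6 (8.91 to 9.25 in the other 4), 6.73 for Exo1 (8.16 to 8.43), 5.23 for Dscc1 (6.36 to 6.72), 5.50 for Bdh1 (6.37 to 6.66), 8.20 for Pold1, a DNA polymerase subunit (9.13 to 9.45), and 7.44 for Gins1, a helicase subunit (8.39 to 8.73). Replicate 3, of the mixed background, stood apart with 8.80 for Arap2 (8.20 to 8.36), 10.01 for Dapk1, a death-associated kinase (9.35 to 9.53), and 8.02 for Foxm1 (8.56 to 8.73).

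The effect of the second domain differed with the state of the first, by the test of the difference, in 18 of 28 genes looked at. Most of the 28 were chosen for a large 25,26 minus QM difference, which is part of the tested quantity, so this share is a description. Over all genes 879 (5.76%) passed, and 190 without the block. On the log2 scale the excess with the first domain disrupted was 4.76 for 1700007K13Rik, 4.05 for Tbc1d8, 3.53 for Sytl1, 3.24 for Notch3, 3.21 for Sulf2, 3.17 for Tex15, 3.01 for Celf5, 2.50 for both Dcxr and Crip2, 2.44 for Fas and 2.33 for Trp53inp1. It was 1.70 for Ccng1, 1.68 for Zfp365, 1.13 for Apaf1, 1.03 for Mdm2 and 1.01 for Cdkn1a. Among genes lower in 25,26 it was -1.41 for Mybl2 and -1.39 for Dscc1. For 1700007K13Rik the excess rests on a QM mean under the log2 4.79 cut used to choose genes for testing.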

How the results depend on the processing

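Of 77 genes examined one by one, 67 were called, none of the 67 changed sign under any of 26 alternatives, 16 were called under all of them, and 33 were lost without the title number as a replicate block. Calls over all genes are given as total, higher and lower, followed by genes also higher in LSL-WT Cre, genes also higher in 53,54, and genes passing the test of the difference of differences. They were 131, 106, 25, 102, 105 and 190 with no replicate block, against 1192, 528, 664, 456, 489 and 879 with it. They were 222, 160, 62, 135, 153 and 554 without the arrays of title number 2, 37, 35, 2, 34, 35 and 0 on 129/Sv arrays alone with no replicate block, and 2434, 962, 1472, 803, 834 and 2478 with array weights. The 5 groups of the series text with the block gave 603, 347 and 256, and title numbers 1 to 3 alone gave 397 lower. The arrays of each comparison alone gave 105, 97, 8, 89, 95 and 550 with the block and 96, 87, 9, 73, 82 and 137 without it, where the counts shared with LSL-WT Cre and 53,54 were added after seeing the data. With each 25,26 or QM array left out in turn, the ranges were 310 to 1192, 195 to 531, 115 to 664, 178 to 464, 191 to 504 and 429 to 879, the lowest each without QM replicate 2. The mean of mitosis and replication genes differed by -0.51 to -0.29 across these, and passed an exact permutation p of 0.05 only without 25,26 replicate 2 (-0.29, p = 0.0286).

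Gadd45a, Bbc3 and Cgrrf1, which were not called, changed sign. Gadd45a was at -0.11 without the block, both over all arrays and in the compared arrays alone, -0.032 with a random block, -0.14 without title number 2, -0.20 on 129/Sv arrays, -0.0039 with median centring, and between -0.15 and 0.11 with each array left out, negative without 25,26 replicate 2 and QM replicate 1. On 129/Sv arrays Bbc3 was at -0.027 and Cgrrf1 at -0.081. The cause of these changes was not tested. With a random replicate block, which uses the lone array of title number 5, 909 genes were called (431 higher, 478 lower).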
